A study of Mus musculus with 15 samples.

Results

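The genes described here are 38 genes of liver fatty acid oxidation and of the nuclear receptor that drives it, PPAR-alpha. They were chosen by symbol from a list of mitochondrial, peroxisomal and microsomal fatty acid oxidation and ketogenesis genes. All 38 were found among the 57132 gene identifiers of the deposited count table, and all 38 passed the filter on low counts and were tested. The list holds the receptor gene Ppara, 18 mitochondrial genes, 11 peroxisomal genes, 4 microsomal genes and 4 other PPAR-alpha targets.

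RNA was sequenced from livers of male C57BL/6J mice of 3 groups, all 8 weeks old at the start and all killed after 18 weeks. In the SR9009 group the feed was a high-fat diet deficient in choline and defined in amino acids (CDA-HFD), and after 12 weeks of it the mice received intraperitoneal SR9009 at 100 mg/kg per day for 6 weeks. Vehicle mice ate the same diet and received vehicle with 15% Kolliphor over the same weeks, and Chow mice ate chow. The arms held 15, 15 and 10 mice, and 5 SR9009, 5 Vehicle and 4 Chow libraries were analysed. SR9009 is a synthetic agonist of the REV-ERB nuclear receptors, transcriptional repressors of the circadian clock. Whether Chow mice were injected is not stated in the labels, so diet and injection cannot be told apart in any comparison with Chow. They also give no feeding state or time of day at collection.

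Long-chain fatty acids enter mitochondria through the carnitine shuttle, are shortened by beta-oxidation and in the liver feed ketone body synthesis. Peroxisomes shorten very long and branched chains, and microsomal Cyp4a enzymes hydroxylate the omega end of fatty acids. PPAR-alpha, bound by fatty acids, activates genes of each compartment in the hepatocyte, and mouse Cyp4a genes are classical indicators of its activity.

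Total counts per library ranged from 29950509 to 45542335. Values are counts scaled to a common library total (CPM) after TMM normalization, which centres the typical gene, with factors of 1.02 to 1.15 in diet-fed libraries and 0.753 to 0.824 in Chow libraries. Of 10 listed hepatocyte markers 9 were matched and detected, and their summed level was 67325 to 84555 CPM in SR9009, 81277 to 89640 CPM in Vehicle and 108370 to 149910 CPM in Chow libraries. Summed levels of 8 macrophage markers were 1131 to 1622 CPM in SR9009, 1289 to 2076 CPM in Vehicle and 107 to 327 CPM in Chow libraries. In bulk liver, fewer cells of a type and less RNA per cell cannot be told apart. Libraries also parted by how many olfactory, vomeronasal and trace amine receptor genes had a count. That number was 158 to 243 in SR9009 replicates 2, 4 and 5 and Vehicle replicates 1, 2 and 3, 63 to 82 in the other 4 diet-fed libraries, and 50 to 113 in Chow libraries.

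Promoter windows from 250 bases before to 50 after a transcription start were available for 29 of the 38 genes, in 33 windows (RefSeq, GRCm38.p6). Abcd2, Acaa2, Crat, Cyp4a10, Cyp4a14, Cyp4a31, Decr1, Hsd17b4 and Vnn1 had no window, so the search does not cover them. The windows were searched on both strands for AGGTCA, the hexamer that nuclear receptors such as PPAR-alpha and REV-ERB recognise. It was in 6 of the 33 windows (18.2%), those of Acadm, Acadvl, Acot3, Acot4 and Cpt1a, against 16.3% of all 32851 promoter windows. The direct repeat AGGNCANAGGNCA was in 0 of the 33 windows and in 0.381% of all windows. TNAGGTCA, a longer form of AGGTCA, was in 0 of the 33 windows and in 4.58% of all windows. The full element bound by REV-ERB and ROR receptors was not searched. Each TNAGGTCA match is also an AGGTCA match, and an absent match says only that these letters are not in the window. The median GC content was 60.3% in the 33 windows and 52.7% in all windows.

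The 4 windows that follow belong to the receptor gene, to Cpt1a and Pdk4, whose SR9009 libraries lay below all Vehicle libraries, and to Hadha, whose start lies 273 bases from that of Hadhb on the opposite strand. Capitals mark AGGTCA on either strand, here only TGACCT in Cpt1a, which begins at position -94 from the start.
Ppara promoter, chr15:85735526-85735825, plus strand: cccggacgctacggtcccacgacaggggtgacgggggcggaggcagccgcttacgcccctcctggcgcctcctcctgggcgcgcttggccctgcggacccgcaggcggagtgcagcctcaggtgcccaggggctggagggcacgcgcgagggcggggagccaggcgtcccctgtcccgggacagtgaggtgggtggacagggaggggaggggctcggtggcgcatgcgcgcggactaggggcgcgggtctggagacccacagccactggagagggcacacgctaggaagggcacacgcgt
Cpt1a promoter, chr19:3323051-3323350, plus strand: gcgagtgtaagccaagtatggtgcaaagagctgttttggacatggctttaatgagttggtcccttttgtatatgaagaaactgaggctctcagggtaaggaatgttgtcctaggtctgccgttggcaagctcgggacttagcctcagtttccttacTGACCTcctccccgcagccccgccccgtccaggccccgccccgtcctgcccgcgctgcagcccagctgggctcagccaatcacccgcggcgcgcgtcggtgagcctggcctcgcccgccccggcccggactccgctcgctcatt
Pdk4 promoter, chr6:5496229-5496528, minus strand: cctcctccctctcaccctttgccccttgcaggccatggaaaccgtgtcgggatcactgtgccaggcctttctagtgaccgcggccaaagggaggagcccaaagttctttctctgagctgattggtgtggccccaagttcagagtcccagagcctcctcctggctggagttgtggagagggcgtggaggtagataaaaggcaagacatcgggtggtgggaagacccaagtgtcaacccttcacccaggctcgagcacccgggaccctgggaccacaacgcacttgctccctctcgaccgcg
Hadha promoter, chr5:30154931-30155230, minus strand: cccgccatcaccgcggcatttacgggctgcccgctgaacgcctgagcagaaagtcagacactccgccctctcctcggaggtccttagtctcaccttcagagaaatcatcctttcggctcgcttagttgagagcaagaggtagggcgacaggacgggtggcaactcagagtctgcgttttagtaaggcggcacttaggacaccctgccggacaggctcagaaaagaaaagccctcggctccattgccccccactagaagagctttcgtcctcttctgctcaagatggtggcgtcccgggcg
The Hadha and Hadhb windows share 228 bases.

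The comparison of Vehicle with Chow mice asked how the diet, together with vehicle injections, changed these genes. Of the 38 genes, 7 were higher and 16 were lower in Vehicle at an adjusted p under 0.05, and 15 did not pass (edgeR quasi-likelihood test, Benjamini-Hochberg over 18181 genes). That is 60.5% of the 38 genes, against 55.2% of all tested genes, 18.4% higher against 29.8% and 42.1% lower against 25.4%. The median log2 fold change was -0.26 over the 38 genes and 0.02 over all genes. Libraries of Vehicle lay wholly above those of Chow for 7 genes (24.7% of all genes) and wholly below for 16 (20.7% of all genes). With raw library totals in place of TMM the median of all genes moved by 0.48 on the log2 scale. The 38 genes then gave 16 higher and 5 lower calls, and all 18181 genes gave 10389 higher and 1378 lower. The counts by direction therefore depend on the scaling, for these genes and for all genes. All 7 higher calls and the 5 lower calls of Cpt2, Acaa2, Abcd3, Hsd17b4 and Acsl1 held under both scalings. Over the same comparison 7 of 9 hepatocyte markers fell, while 8 of 8 macrophage, 7 of 7 stellate cell and myofibroblast and 5 of 5 cholangiocyte markers rose, and their part in the results was not tested. Summed levels in Vehicle and Chow libraries were 907 to 1292 and 170 to 235 CPM for the stellate cell and myofibroblast markers and 50.9 to 122 and 12.4 to 25.8 CPM for the cholangiocyte markers.

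**Figure D1:**
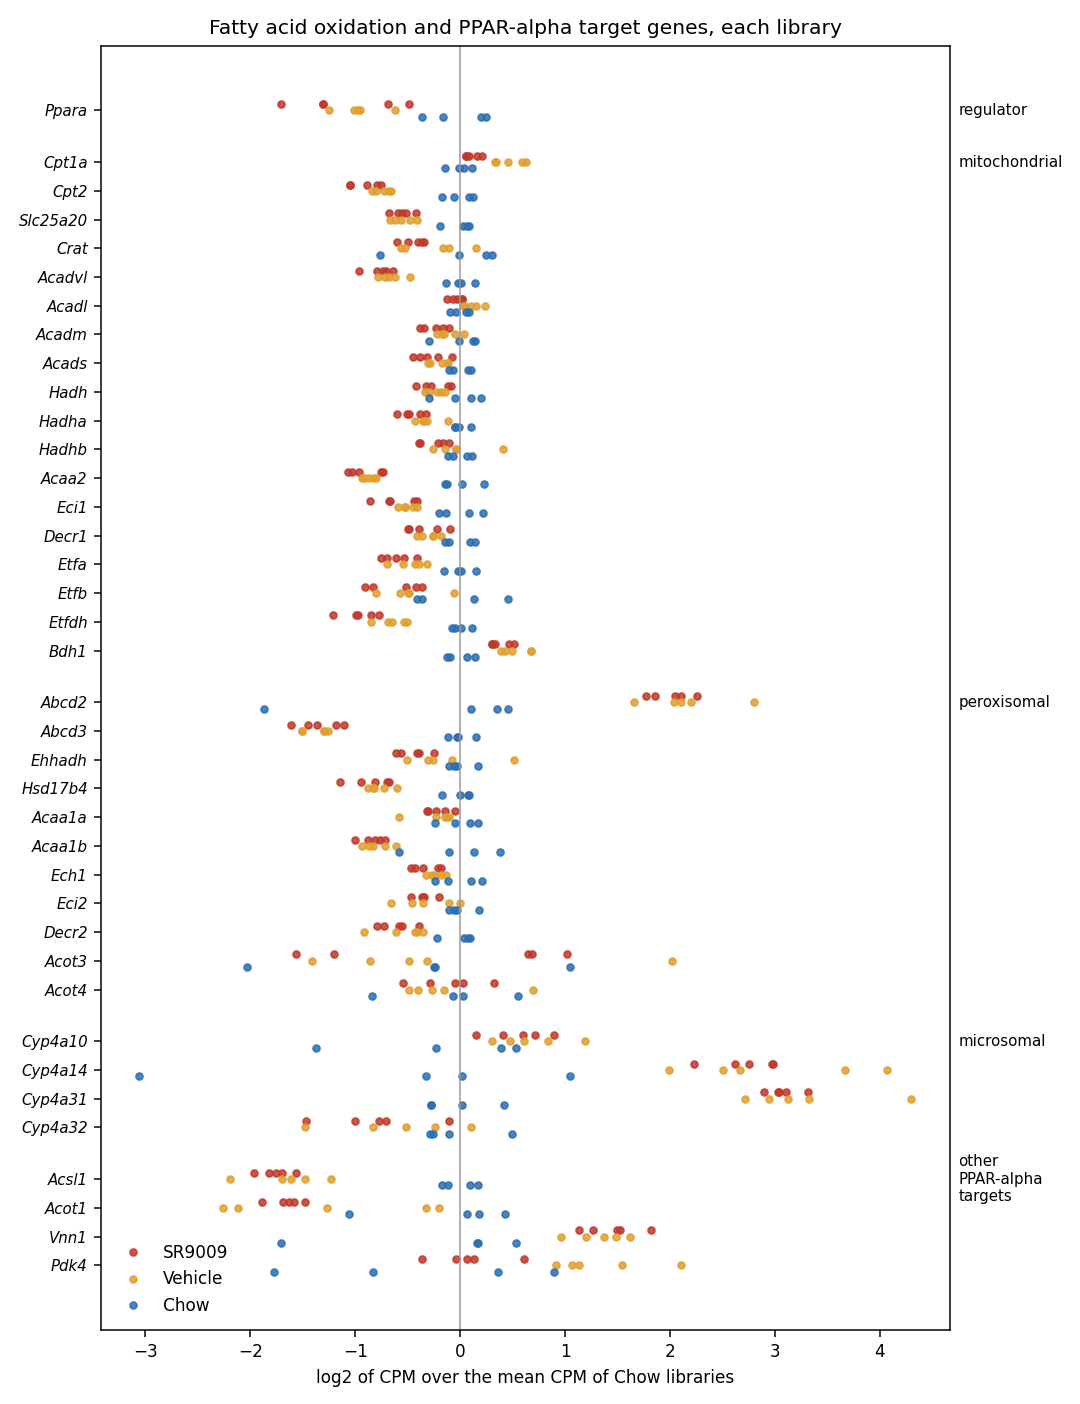
Each row is a gene, grouped by compartment, and each point is a library (5 SR9009, 5 Vehicle, 4 Chow). The horizontal axis is the log2 of a library's CPM over the mean CPM of the Chow libraries, and points of Cyp4a14, Cyp4a31 and Abcd2 from SR9009 and Vehicle libraries lie to the right of all Chow points.

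Ppara, the gene of the receptor itself, fell in Vehicle. It had 56.8, 46.9, 55.5, 72.9 and 57.5 CPM in the Vehicle libraries, against 132, 128, 86.7 and 99.9 CPM in the Chow libraries. All Vehicle libraries were below all Chow libraries. The log2 fold change was -0.95 ± 0.22 (SE; adjusted p = 0.00186, edgeR quasi-likelihood test). With raw library totals it was -0.47, which no longer passed (adjusted p = 0.0595, edgeR).

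In the mitochondrion 2 of 18 genes were higher and 9 were lower in Vehicle, with a median log2 fold change of -0.30. That is 11.1% higher and 50% lower, against 29.8% and 25.4% of all tested genes. Raw library totals gave 7 higher and 2 lower. The carnitine shuttle split. Cpt1a, the outer-membrane carnitine palmitoyltransferase that controls entry of long-chain fatty acids, had 544, 482, 528, 444 and 447 CPM in Vehicle, against 380.3, 349, 318 and 361 CPM in Chow libraries. Every Vehicle library exceeded every Chow library, and Cpt1a rose (log2 fold change 0.47 ± 0.09, SE; adjusted p = 0.000223, edgeR). Cpt2, the inner-membrane transferase that completes the transfer, had 119.7, 130.0, 132, 126 and 117 CPM in Vehicle, against 227, 221, 185 and 200.4 CPM in Chow libraries. Here every Vehicle library was below every Chow library, and the log2 fold change was -0.74 ± 0.09 (SE; adjusted p = 2.68e-06, edgeR). Slc25a20, the carnitine-acylcarnitine carrier between them, fell by 0.55 on the log2 scale, but by 0.06 and without a call under raw library totals. Crat, which forms short-chain acylcarnitines, overlapped between the groups at 36.2 to 59.2 CPM in Vehicle and 31.4 to 66.0 CPM in Chow.

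Among the acyl-CoA dehydrogenases, which carry out the opening step of each cycle, Acadvl for very long chains was 148, 165, 154, 182 and 159 CPM in Vehicle, against 279, 255, 251 and 231 CPM in Chow libraries. The groups did not overlap, with a log2 difference of -0.65 ± 0.09 (SE; adjusted p = 9.93e-06, edgeR) that under raw library totals was -0.17 and not called. Acadl, Acadm and Acads, which take long, medium and short chains, were not called, with log2 fold changes of 0.11, -0.11 and -0.20. All 3 were called higher with raw library totals. Acads was called lower with limma-voom (adjusted p = 0.0421) and with a replicate block (adjusted p = 0.0481, edgeR). It was also called lower without SR9009 replicate 5 or Vehicle replicate 4 (adjusted p of 0.0408 and 0.0496, edgeR). Acaa2, the thiolase of the closing step, had 599, 593, 616, 637 and 649.7 CPM in Vehicle, against 1322, 1146, 1034 and 1023 CPM in Chow libraries. It stood lower in all Vehicle libraries, by -0.87 ± 0.10 (log2, SE; adjusted p = 2.46e-06, edgeR). Hadha, the alpha subunit of the trifunctional protein, and Eci1 and Decr1, which handle double bonds, were lower by -0.31, -0.50 and -0.29. Under raw library totals none of these 3 was called, at 0.18, -0.02 and 0.19. The Decr1 call was lost without Chow replicate 1 or 2 (adjusted p of 0.0673 and 0.058, edgeR). The electron acceptor genes Etfa and Etfdh were lower by -0.47 and -0.64, and were 0.01 and -0.16 without a call under raw library totals. Etfb, the other flavoprotein subunit, was counted at 2.73 to 4.57 CPM in Vehicle and 3.59 to 6.56 CPM in Chow, far under Etfa at 260.1 to 339.7 and 379 to 468 CPM, and how overlapping genes were counted is not stated. Bdh1, which interconverts the ketone bodies, rose by 0.54 ± 0.09 (log2, SE; adjusted p = 0.00013, edgeR), with 353 to 431 CPM in Vehicle and 247 to 297 CPM in Chow libraries. Hadh and Hadhb were not called, at -0.23 and 0.00, and under raw library totals both were called higher. Without Chow replicate 3 Hadh was called lower, at -0.32 (adjusted p = 0.0146, edgeR).

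In the peroxisome 1 of 11 genes was higher and 5 were lower, with a median of -0.23. That is 9.09% higher and 45.5% lower, against 29.8% and 25.4% of all tested genes. Raw library totals gave 4 higher and 2 lower. The transporters that bring acyl-CoAs into the organelle moved in opposite directions. Abcd2 had 34.7, 58.7, 38.7, 36.4 and 26.7 CPM in Vehicle, against 10.8, 9.10, 2.32 and 11.6 CPM in Chow libraries. All Vehicle libraries were higher, a 4.64-fold difference (95% interval 2.73 to 7.88; adjusted p = 0.000132, edgeR). Abcd3 had 312, 311, 359.8, 359 and 371 CPM in Vehicle, against 985, 871, 868 and 814 CPM in Chow libraries. It was lower in each Vehicle library, at 0.387 of the Chow level (95% interval 0.33 to 0.453; adjusted p = 5.65e-08, edgeR). Hsd17b4, the multifunctional enzyme for branched and very long chains, had 336, 349.6, 346, 405 and 374 CPM in Vehicle, against 655, 647, 546 and 616 CPM in Chow libraries. Its groups did not overlap, at -0.77 ± 0.10 (log2, SE; adjusted p = 1.16e-05, edgeR). The parallel enzyme of straight chains, Ehhadh, overlapped at 272 to 551 CPM in Vehicle and 359 to 434 CPM in Chow. Its log2 fold change was -0.08 (adjusted p = 0.698, edgeR), and 0.41 with a higher call under raw library totals. Without Vehicle replicate 2, the library at 551 CPM, Ehhadh was called lower at -0.28 (adjusted p = 0.0381, edgeR).

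The thiolase copy Acaa1b was lower by -0.79 (adjusted p = 0.000259, edgeR), and by -0.31 without a call under raw library totals. Acaa1a was at -0.23 and not called (adjusted p = 0.0882, edgeR). Without Chow replicate 3 Acaa1a was called lower, at -0.30 (adjusted p = 0.0368, edgeR). Under raw library totals it was called higher, at 0.25 (adjusted p = 0.045, edgeR). Acaa1a and Acaa1b are close copies, and the assignment of reads that match both is not stated in the labels. Eci2 and Decr2, auxiliary enzymes for unsaturated chains, were lower by -0.30 and -0.53, and under raw library totals stood at 0.18 and -0.05 without a call. The Eci2 call had overlapping libraries and was lost in 5 of 14 fits that left out a library, Vehicle replicates 2, 4 and 5 and Chow replicates 1 and 4, with an adjusted p of up to 0.124 (edgeR). Ech1, which moves double bonds, was at -0.23 and not called, and at 0.25 and called higher under raw library totals. Without Chow replicate 3 Ech1 was called lower, at -0.30 (adjusted p = 0.0184, edgeR). The thioesterases Acot3 and Acot4 were not called, at 0.20 to 2.19 and 21.0 to 47.5 CPM in Vehicle and 0.13 to 1.12 and 16.4 to 43.2 CPM in Chow, and share sequence with Acot1.

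In the microsomal group 2 of 4 genes rose and 0 fell, and with raw library totals 3 rose. This count does not stand for all Cyp4a genes, since Cyp4a12a and Cyp4a12b, listed outside these 4, were lower in Vehicle. Cyp4a12a was 13.5 to 87.2 CPM in Vehicle and 327 to 447 CPM in Chow libraries. Cyp4a12b was 118 to 193 CPM in Chow libraries, and all Vehicle libraries lay below that range. Cyp4a14 had 316, 833, 634, 282 and 198 CPM in Vehicle, against 39.8, 103, 5.99 and 50.5 CPM in Chow libraries. The lowest Vehicle library stood above the highest Chow library, although Chow itself spread widely. The difference was 9.07-fold (95% interval 3.29 to 25.0; adjusted p = 0.00146, edgeR), and the log2 fold change of 3.18 became 3.82 without Chow replicate 2. Cyp4a31 had 26.7, 60.1, 30.6, 20.0 and 23.5 CPM in Vehicle, against 2.53, 4.09, 2.52 and 3.09 CPM in Chow libraries. It was 10.5-fold higher, without overlap (95% interval 6.62 to 16.5; adjusted p = 5.9e-07, edgeR). Cyp4a10 had 204, 378, 295, 252 and 229.6 CPM in Vehicle, against 217, 240.0, 63.9 and 141 CPM in Chow libraries. The groups overlapped, and the ratio of 1.64 did not pass (95% interval 1.04 to 2.60; adjusted p = 0.0639, edgeR). It passed without Chow replicate 1 (adjusted p = 0.0476, edgeR), without Chow replicate 2 (adjusted p = 0.025, edgeR) and with DESeq2 (adjusted p = 0.0263). Cyp4a32 was 12.1 to 36.0 CPM in Vehicle and 27.6 to 47.4 CPM in Chow and was not called (adjusted p = 0.186, edgeR). The Cyp4a genes are near copies of one another, so counts of each are uncertain to the extent that the authors' counting split shared reads.

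Among the other PPAR-alpha targets, Acsl1, which activates long-chain fatty acids to their CoA esters, had 469.8, 332, 646, 498 and 546 CPM in Vehicle, against 1626, 1709, 1400.2 and 1344 CPM in Chow libraries. The highest Vehicle library was under the lowest Chow library, and Vehicle stood at 0.328 of Chow (95% interval 0.262 to 0.41; adjusted p = 3.55e-07, edgeR). Vnn1, the pantetheinase that releases cysteamine, had 107, 68.2, 90.3, 80.4 and 97.8 CPM in Vehicle, against 39.4, 39.2, 10.8 and 50.7 CPM in Chow libraries. All Vehicle libraries were higher, 2.54-fold (95% interval 1.56 to 4.12; adjusted p = 0.00311, edgeR). Pdk4, the kinase that inhibits pyruvate dehydrogenase and spares glucose, had 54.4, 49.0, 112, 75.4 and 56.9 CPM in Vehicle, against 48.3, 33.3, 14.6 and 7.59 CPM in Chow libraries. The nearest libraries of the groups differed by less than 1 CPM, and the difference was 2.67-fold (95% interval 1.37 to 5.22; adjusted p = 0.0161, edgeR). The Pdk4 call was lost with a term for the receptor-gene class (adjusted p = 0.0591, edgeR) and with SR9009 libraries left out of the fit (adjusted p = 0.0512, edgeR). In the 2 Vehicle and 4 Chow libraries with few receptor genes Pdk4, Vnn1 and Cyp4a14 kept log2 fold changes of 1.35, 1.35 and 2.27 but did not pass (adjusted p of 0.185, 0.102 and 0.116, edgeR). Acot1, a cytosolic acyl-CoA thioesterase, was 5.40 to 22.4 CPM in Vehicle and 12.4 to 34.7 CPM in Chow libraries and missed the threshold, at a log2 fold change of -0.99 (adjusted p = 0.0507, edgeR). It was called lower at -1.62 with the receptor-class term (adjusted p = 0.0127, edgeR) and at -2.18 in libraries with few receptor genes (adjusted p = 0.00388, edgeR). It was also called without Vehicle replicate 2, without Vehicle replicate 3 or without Chow replicate 3, at -1.28, -1.22 and -1.22 (adjusted p of 0.0152, 0.0252 and 0.0181, edgeR), with limma-voom at -1.07 (adjusted p = 0.0314), and with a filter of 1 CPM in 4 libraries at -0.97 (adjusted p = 0.0476, edgeR). With raw library totals it was -0.49 and not called (adjusted p = 0.308, edgeR).

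**Figure D2:**
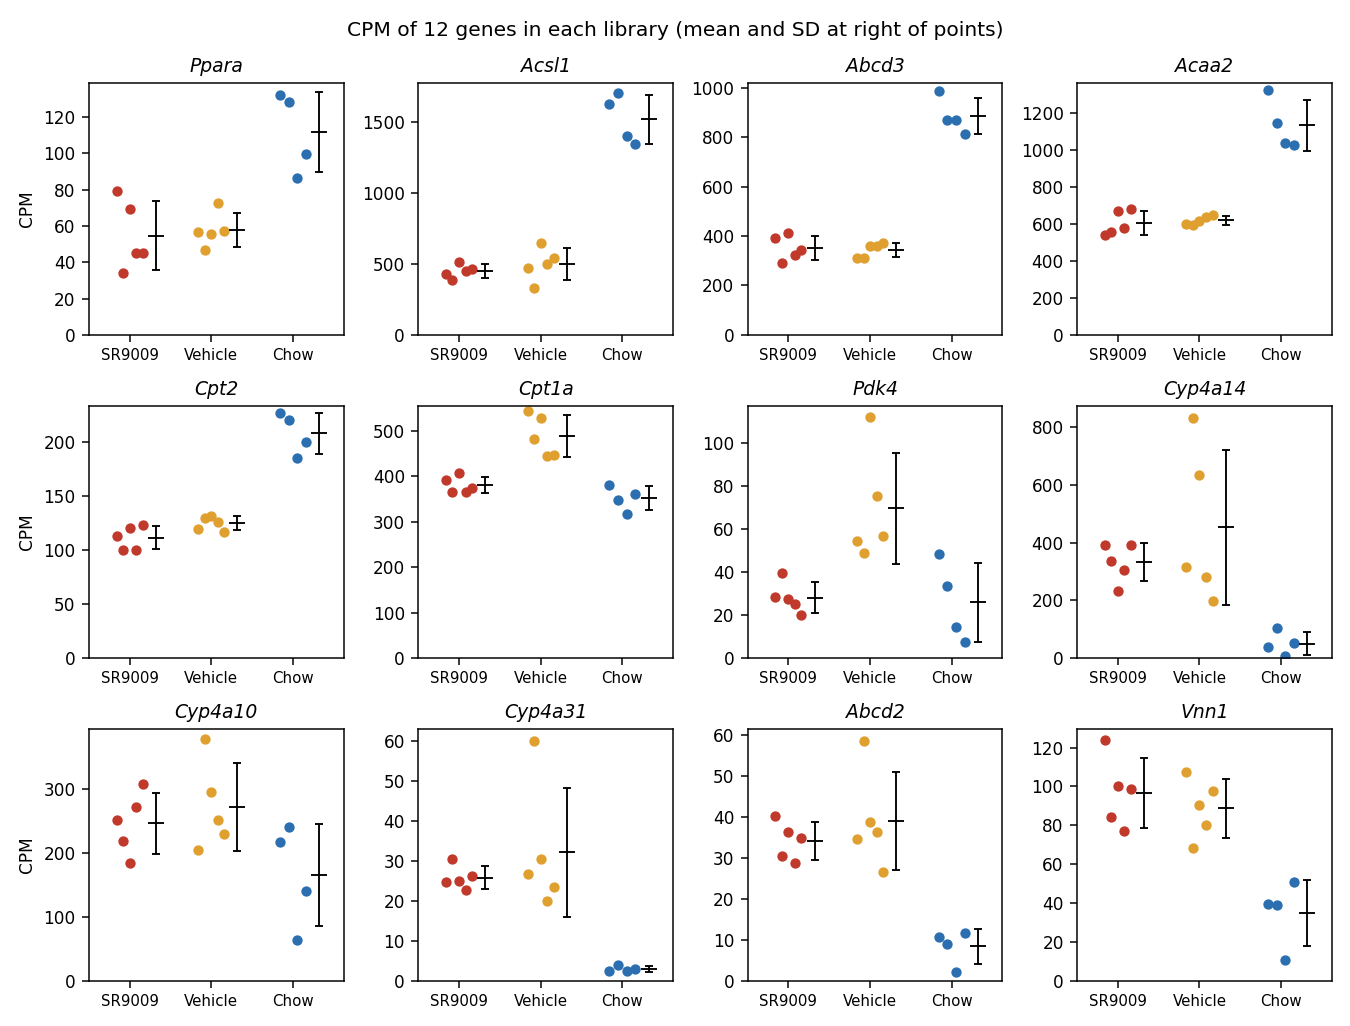
CPM of 12 genes in each library, on vertical axes that start at 0 and differ between panels, with SR9009, Vehicle and Chow from left to right and the mean and SD beside the points. In the Cpt1a and Pdk4 panels the SR9009 points lie below all Vehicle points, and in the Cyp4a14 panel Vehicle replicate 2 is highest at 833 CPM.

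Compared per kilobase of exon, the order of the 38 genes differed between the groups. The length was the union of all annotated exons of a gene (GENCODE M21 models), and the place of a gene depends on it. Acaa2 and Acaa1b held the top 2 places in each group, at 399 and 397 CPM per kilobase in SR9009, 408 and 409 CPM per kilobase in Vehicle and 746 and 707 CPM per kilobase in Chow livers. Cyp4a14 ranked 4 of 38 in SR9009, 3 of 38 in Vehicle and 29 of 38 in Chow livers. Acsl1 ranked 21 in SR9009, 21 in Vehicle and 5 in Chow livers, and Acot3 was lowest in each group. Differences between neighbours in this order were not tested.

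Ratios of 2 genes within a library do not depend on how libraries are scaled. These 3 ratios were chosen after the values of their genes were seen, so they are a description, with no test. Cpt1a over Cpt2 averaged 3.44 ± 0.255 in SR9009, 3.93 ± 0.384 in Vehicle and 1.69 ± 0.0908 in Chow libraries (SD, n = 5, 5 and 4). The ratio was 3.03 to 3.65 in SR9009, 3.54 to 4.54 in Vehicle and 1.58 to 1.80 in Chow libraries, so the diet-fed groups overlapped with each other and not with Chow. Cyp4a14 over Cyp4a10 averaged 1.35 ± 0.188 in SR9009, 1.58 ± 0.601 in Vehicle and 0.266 ± 0.155 in Chow libraries (SD, n = 5, 5 and 4). The lowest diet-fed library, at 0.861, stood above the highest Chow library, at 0.429.

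Hadhb over Hadha, the paired subunits of 1 enzyme, averaged 0.521 ± 0.0238 in SR9009, 0.555 ± 0.0581 in Vehicle and 0.45 ± 0.0191 in Chow libraries (SD, n = 5, 5 and 4). The lowest diet-fed library, at 0.492, stood above the highest Chow library, at 0.473, and SR9009 and Vehicle libraries overlapped.

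**Figure D3:**
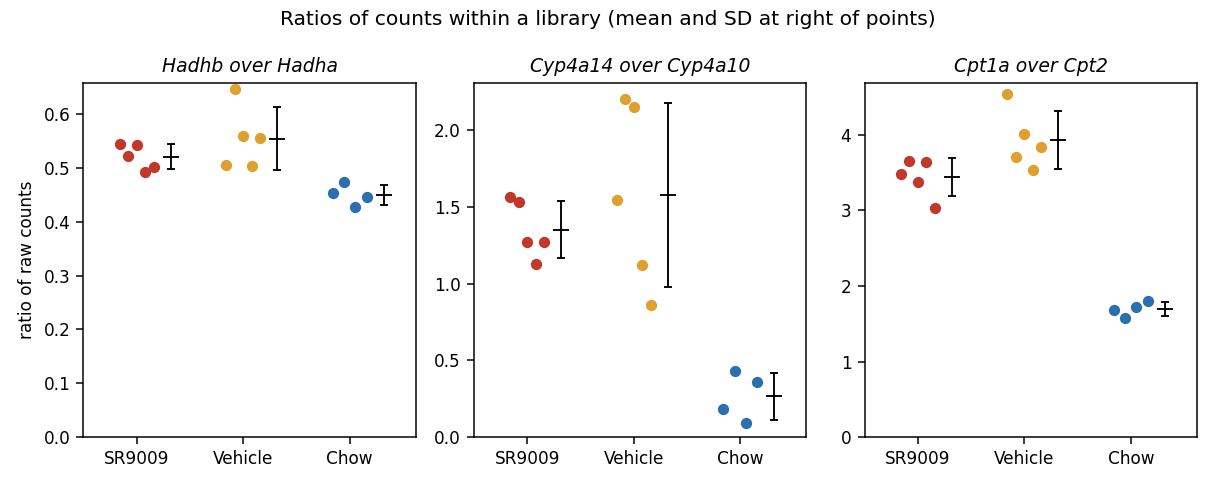
Ratio of the raw counts of 2 genes in each library for Hadhb over Hadha, Cyp4a14 over Cyp4a10 and Cpt1a over Cpt2, with SR9009, Vehicle and Chow from left to right and the mean and SD beside the points. In each panel every SR9009 and Vehicle point lies above every Chow point.

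SR9009 was set against Vehicle to ask which of these genes the compound changed in mice on the diet. None of the 38 genes passed, 0 higher and 0 lower by edgeR's quasi-likelihood test with Benjamini-Hochberg adjustment, against 0.242% of all genes, 0.165% higher and 0.077% lower. DESeq2 called 1 of the 38 genes and limma-voom with sample quality weights called 1, Cpt1a in both cases. At an unadjusted p under 0.05, 0 genes were higher and 6 were lower, Cpt1a, Etfdh, Pdk4, Ehhadh, Hadhb and Acadl, against 7.28% of all genes, 3.91% higher and 3.37% lower. The SR9009 libraries lay wholly below the Vehicle libraries for 3 of the 38 genes, Cpt1a, Pdk4 and Acadl, against 0.979% of all genes. The log2 fold change was negative in 35 of 38 genes, against 9045 of all 18181 genes. Its median was -0.13 against 0.00 over all genes, and these genes share the same libraries. The 95% interval stayed within 1.5-fold in either direction for 26 of the 38 genes and within 2-fold for 34. Over all 18181 genes it did so for 10296 and 13976. Over the same comparison 8 of 9 hepatocyte markers had a negative log2 fold change, with a median of -0.12 and 0 called, and their part in the result was not tested.

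Cpt1a had 393, 366, 407, 366 and 374 CPM in the SR9009 libraries, against 544, 482, 528, 444 and 447 CPM in the Vehicle libraries. The highest SR9009 library was below the lowest Vehicle library. Cpt1a stood at 0.779 of the Vehicle level (95% interval 0.691 to 0.877; adjusted p = 0.11, edgeR), which was called neither here nor in any fit that left out a library, where the adjusted p ran from 0.0905 to 0.306 (edgeR). DESeq2 called it at a log2 fold change of -0.36 (adjusted p = 0.00112), and limma-voom at -0.41 (adjusted p = 0.0303). In the libraries with many receptor genes the log2 fold change was -0.51, and in those with few it was -0.16.

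Pdk4 had 28.4, 39.6, 27.2, 25.2 and 20.2 CPM in SR9009, against 54.4, 49.0, 112, 75.4 and 56.9 CPM in Vehicle libraries. No SR9009 library reached the lowest Vehicle library, and the SR9009 level was 0.404 of Vehicle (95% interval 0.218 to 0.749; adjusted p = 0.362, edgeR). The log2 fold change was -1.36 in libraries with many receptor genes and -1.25 in those with few. Acadl had 205, 199.8, 212, 192 and 212 CPM in SR9009, against 213, 247, 232, 217 and 225 CPM in Vehicle libraries. The groups met within about 1 CPM and the ratio was 0.901 (95% interval 0.816 to 0.995; adjusted p = 0.645, edgeR).

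In the mitochondrion all 18 log2 fold changes were negative, from -0.36 to -0.0044 with a median of -0.13, and 17 of 18 intervals stayed within 1.5-fold. Etfdh was at 0.804 of Vehicle and Hadhb at 0.842, both not called (adjusted p of 0.272 and 0.64, edgeR). In the peroxisome the median was -0.07 over 11 genes, 9 negative. Ehhadh was 252 to 324 CPM in SR9009 and 272 to 551 CPM in Vehicle libraries, with a ratio of 0.779 (95% interval 0.623 to 0.975; adjusted p = 0.609, edgeR). The 4 microsomal genes were at ratios of 0.733 to 0.908. Cyp4a14 had 393, 335, 234, 307 and 390.3 CPM in SR9009, against 316, 833, 634, 282 and 198 CPM in Vehicle libraries. The SR9009 libraries lay within the Vehicle range, and the interval of the ratio, 0.313 to 1.72, spans both a decrease and an increase (adjusted p = 0.949, edgeR). The log2 fold change of Cyp4a14 was -0.81 in libraries with many receptor genes and 0.38 in those with few. Cyp4a10 had 251, 219, 184, 272 and 308 CPM in SR9009, against 204, 378, 295, 252 and 229.6 CPM in Vehicle libraries. These libraries overlapped, with a ratio of 0.908 (95% interval 0.593 to 1.39). Ppara had 79.6, 34.2, 69.6, 45.1 and 45.3 CPM in SR9009 libraries, a range wider than that of Vehicle, with a ratio of 0.946 (95% interval 0.696 to 1.28; adjusted p = 0.985, edgeR). Its direction also differed by class, at -0.37 with many receptor genes and 0.20 with few. Acsl1, Acot1 and Vnn1 were at ratios of 0.903, 0.635 and 1.09, none of them called.

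**Figure D4:**
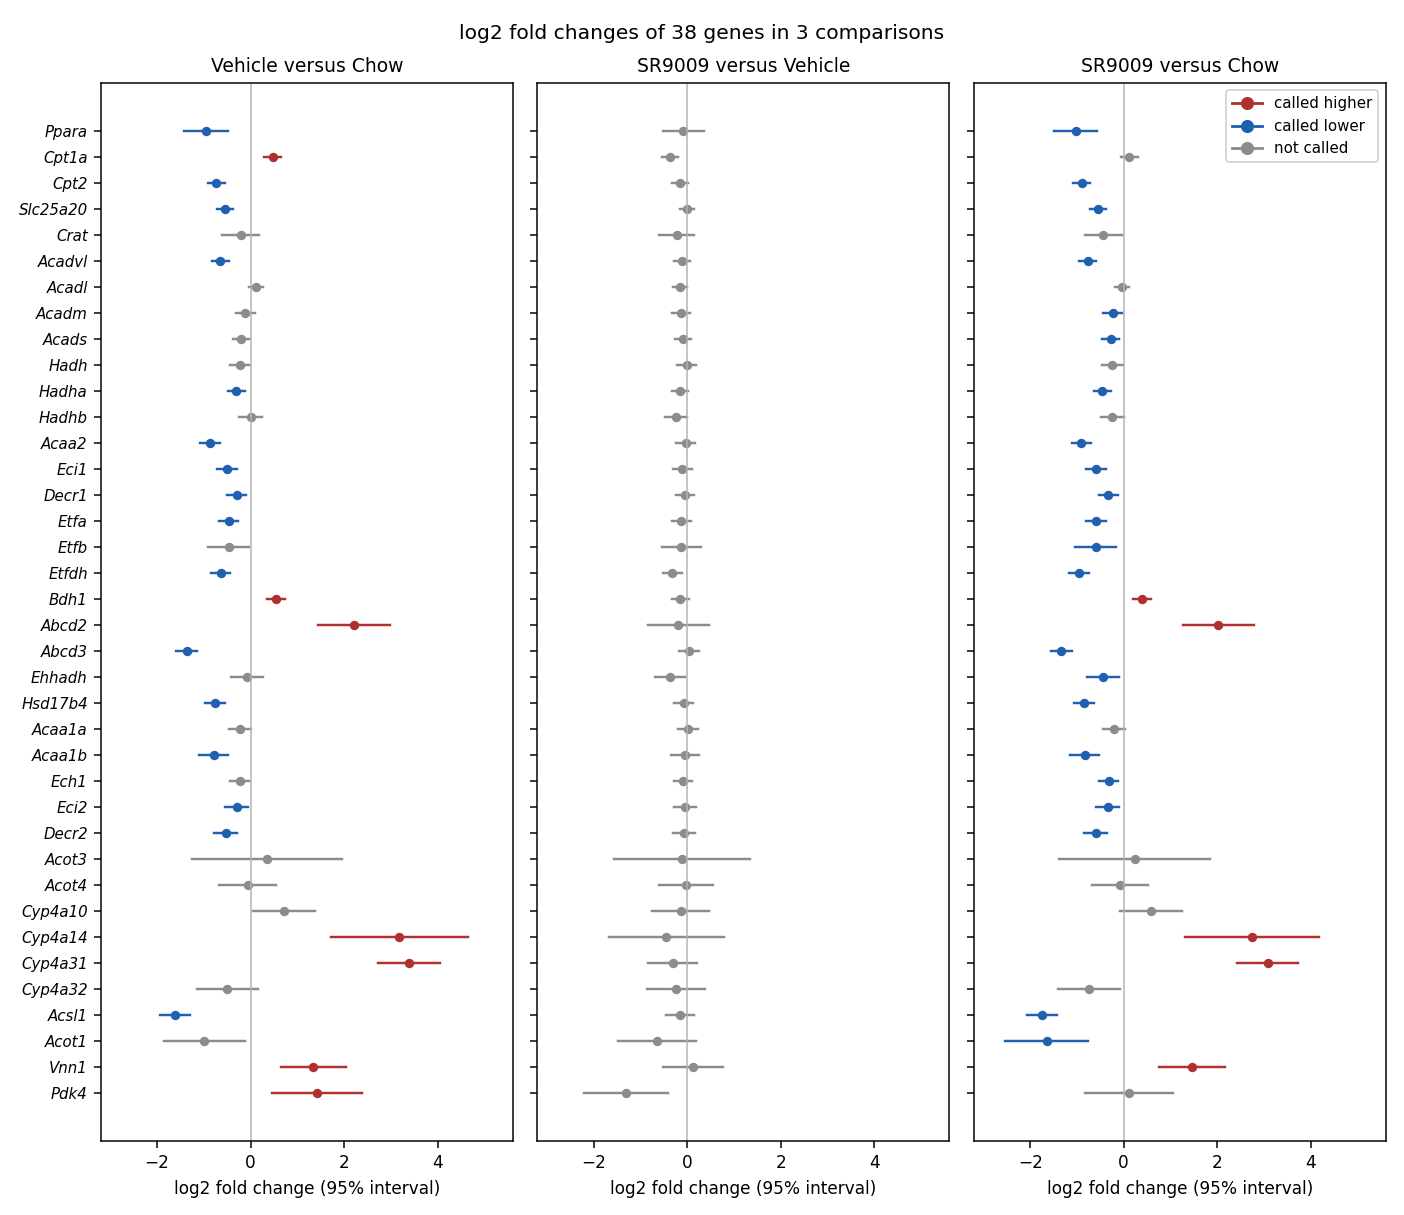
Log2 fold changes of the 38 genes with 95% intervals in 3 panels, from left to right Vehicle versus Chow, SR9009 versus Vehicle, then SR9009 against Chow, with called genes in colour and genes that did not pass in grey. The middle panel holds 0 called genes, and Cpt1a and Pdk4 are called higher in the left panel and are grey in the right panel.

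The comparison of SR9009 with Chow shares its Chow libraries with Vehicle versus Chow and its SR9009 libraries with SR9009 versus Vehicle, so it is not independent of either. Of the 38 genes 5 were higher and 22 lower, 71.1% called against 56.2% of all genes, 13.2% higher against 30.5% and 57.9% lower against 25.7% (edgeR quasi-likelihood test). With raw library totals 8 were higher and 10 lower, against 9964 higher and 1577 lower among all 18181 genes. The higher genes were Bdh1, Abcd2, Cyp4a14, Cyp4a31 and Vnn1, at 1.31, 4.06, 6.65, 8.42 and 2.77-fold, each without overlap (SR9009 above for 25.5% of all genes) and each called higher under both scalings. Without Chow replicate 2 the log2 fold change of Cyp4a14, 2.73, became 3.38. In libraries with few receptor genes Cyp4a14 and Vnn1 stood at 2.65 and 1.68 and did not pass (adjusted p of 0.0763 and 0.0527, edgeR). Cpt1a was 366 to 407 CPM in SR9009 and 318 to 380.3 CPM in Chow libraries, with a log2 fold change of 0.11 (adjusted p = 0.273, edgeR) against 0.47 in Vehicle versus Chow. With raw library totals it was 0.57 and called (adjusted p = 3.21e-05, edgeR). Pdk4 was 20.2 to 39.6 CPM in SR9009 and 7.59 to 48.3 CPM in Chow libraries, with a log2 fold change of 0.11 (adjusted p = 0.846, edgeR) against 1.42 in Vehicle versus Chow.

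Lower in SR9009 than in Chow were Ppara at -1.03, 12 mitochondrial genes, 7 peroxisomal genes, Acsl1 and Acot1, and with raw library totals Ppara, 4 mitochondrial genes, 3 peroxisomal genes, Acsl1 and Acot1 were still called lower. Acsl1 was at 0.296 of Chow (adjusted p = 1.51e-07, edgeR) and Abcd3 at 0.397 (adjusted p = 7.58e-08, edgeR), both lower under raw library totals too. Acot1 had 9.25, 8.34, 6.99, 8.60 and 8.01 CPM in SR9009, against 29.2, 34.7, 12.4 and 27.0 CPM in Chow libraries. All SR9009 libraries were lower and close together, at 0.319 of Chow (95% interval 0.174 to 0.588; adjusted p = 0.00361, edgeR). Acadm, Ehhadh, Eci2 and Etfb lost their calls in 11, 4, 1 and 4 of 14 fits that left out a library, with an adjusted p of up to 0.164, 0.0919, 0.0632 and 0.115 (edgeR).

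Among 51 further genes of the pathway, 6 rose and 29 fell in Vehicle versus Chow, 68.6% called against 55.2% of all genes, 11.8% higher against 29.8% and 56.9% lower against 25.4%. With raw library totals 18 rose and 14 fell, against 10389 higher and 1378 lower among all 18181 genes. Of 11 nuclear receptor and cofactor genes 1 rose and 5 fell. Pparg, the adipogenic relative of Ppara, rose by 0.92, and Creb3l3, a hepatic transcription factor that acts with PPAR-alpha, was lower by -0.70. Of 9 uptake and activation genes 1 rose and 5 fell, among them the bile acid and very long-chain acyl-CoA synthetase Slc27a5 at -1.50 and the fatty acid binding protein Fabp1 at -1.36. The gene that rose was Cd36, by 2.29, with 280 to 381 CPM in Vehicle and 27.3 to 91.2 CPM in Chow libraries. Of 10 further mitochondrial genes 1 rose and 7 fell, with Acadsb, the short branched-chain dehydrogenase, at -1.33 and Acacb, which makes the malonyl-CoA that inhibits Cpt1a, at -2.52. The gene that rose was Acot2, by 2.06, with 8.79 to 25.1 CPM in Vehicle and 1.69 to 4.64 CPM in Chow libraries. Of 12 further peroxisomal genes 0 rose and 10 fell, including Acad11 at -0.99 and the thiolase and sterol carrier Scp2 at -1.14. Fgf21, a fasting and stress hormone, averaged 48.4 ± 27.3 CPM in Vehicle and 1.12 ± 0.558 CPM in Chow libraries (SD, n = 5 and 4), and Cyp4a12b was lower by -2.07. Every further gene named here had an adjusted p-value under 0.05 by edgeR.

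In SR9009 versus Vehicle 0 of the 51 genes were called by edgeR, against 0.242% of all genes, while 1 was higher and 7 were lower at an unadjusted p under 0.05, against 3.91% and 3.37% of all genes. DESeq2 called Plin2 lower (adjusted p = 0.0127), and limma-voom called Plin2 lower (adjusted p = 0.0479). Plin2, which coats lipid droplets, averaged 522 ± 52.8 CPM in SR9009 and 782 ± 187 CPM in Vehicle libraries (SD, n = 5 each; adjusted p = 0.16, edgeR). Fgf21 averaged 20.3 ± 9.96 CPM in SR9009 and 48.4 ± 27.3 CPM in Vehicle libraries (SD, n = 5 each; adjusted p = 0.449, edgeR). In SR9009 versus Chow 6 of the 51 genes rose and 30 fell, 11.8% against 30.5% of all genes and 58.8% against 25.7%. With raw library totals 14 rose and 17 fell, against 9964 higher and 1577 lower among all 18181 genes.

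Across the 10 diet-fed libraries, the log2 CPM of Cyp4a14 was set against that of 6 other genes. With Acot1 Pearson's r was 0.917 (permutation p = 0.00188, adjusted p = 0.0113) and Spearman's rho 0.818 (permutation p = 0.00542, adjusted p = 0.0325). With Cyp4a10 r was 0.80 (permutation p = 0.00678, adjusted p = 0.0203) and rho 0.636 (permutation p = 0.053, adjusted p = 0.159). With Ehhadh r was 0.73 and rho 0.479 (adjusted permutation p of 0.0696 and 0.329). With Pdk4, Vnn1 and Ppara r was 0.241, -0.376 and -0.245, and rho 0.00606, -0.127 and -0.273, none passing. Vehicle replicates 2 and 3 were the 2 libraries farthest from the median of Cyp4a14. Without them r fell to 0.636 for Acot1, 0.526 for Cyp4a10 and -0.23 for Ehhadh (adjusted permutation p of 0.515, 0.515 and 0.627). Leaving out the extremes also narrows the range of Cyp4a14 and leaves fewer libraries. How far the relations rest on those 2 libraries therefore cannot be told. Within the 6 libraries with many receptor genes r was 0.922 for Acot1, 0.801 for Cyp4a10 and 0.961 for Ehhadh (adjusted permutation p of 0.178, 0.15 and 0.0833), and the 4 libraries with few are too few for a value.

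**Figure D5:**
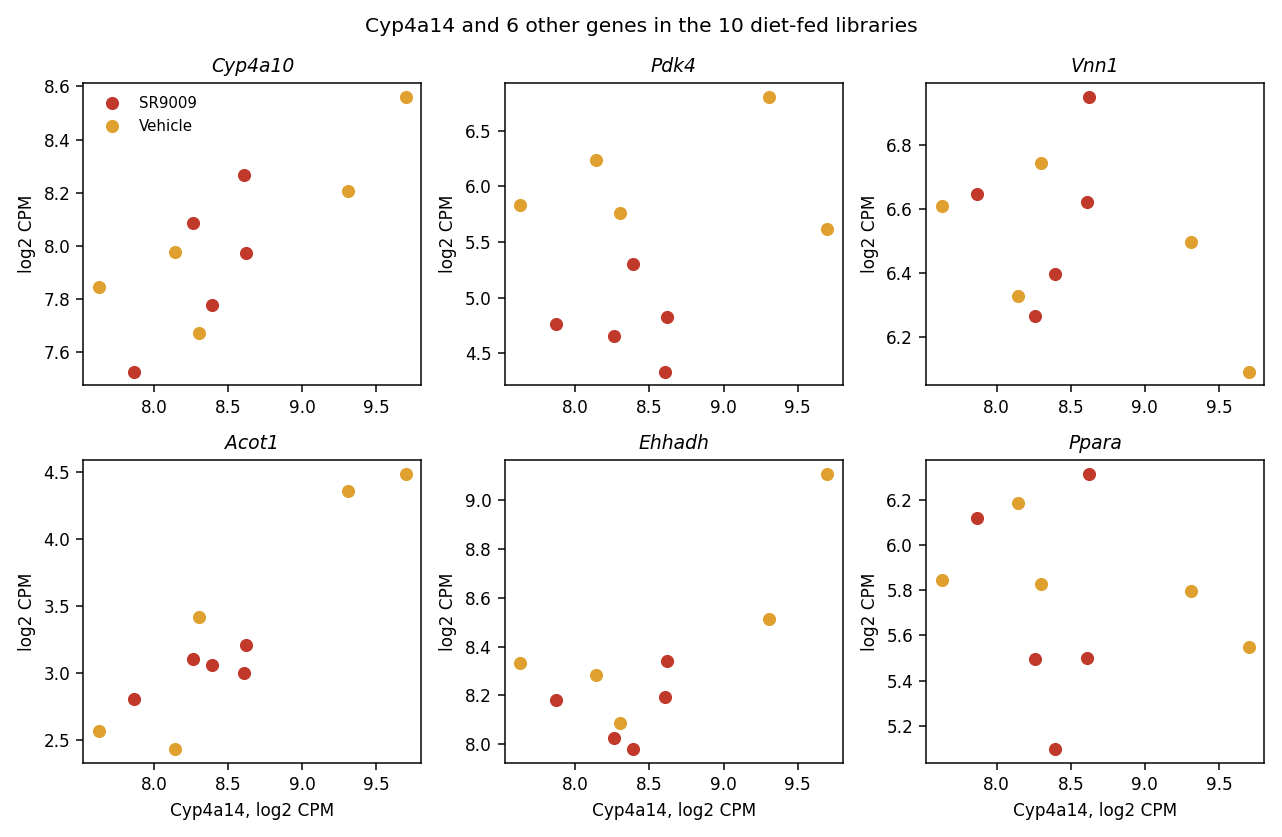
Log2 CPM of 6 genes (vertical axes) against log2 CPM of Cyp4a14 (horizontal axes) in the 10 diet-fed libraries, with SR9009 and Vehicle libraries in separate colours. Vehicle replicates 2 and 3 stand at the right, at 833 and 634 CPM of Cyp4a14, and without them r fell to 0.636 for Acot1 and 0.526 for Cyp4a10.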

How the data were processed

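Bulk liver RNA was sequenced, and the authors deposited raw, unnormalized counts for each Ensembl gene identifier and library. The submitters' processing notes name STAR 2.7.11b as the aligner and GRCm39 as the genome build. No source used here states the counting tool, annotation, strand setting or treatment of shared reads, so near copies and overlapping genes are uncertain. Chow replicate 5 was not analysed here.

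Differences were tested with edgeR 4.0.16 (R 4.3.3). The filter filterByExpr (minimum count 10, minimum total 15) kept 18181 genes. Normalization was by TMM, the quasi-likelihood fit was robust and held the 3 groups together, and Benjamini-Hochberg adjustment ran over every tested gene at a threshold of 0.05. The pipeline was tested on simulated data. Gene symbols came from GENCODE M21 by Ensembl identifier and matched 51880 identifiers (90.8%). The hepatocyte marker written Tf had no match. Sequences came from RefSeq (GRCm38.p6), and no coordinate was carried between builds.

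The genes and lists were chosen with earlier results of these data known. Given per library were Ppara, Cpt1a, Pdk4, Cyp4a10, Cyp4a14 and, in Vehicle versus Chow and SR9009 versus Vehicle, up to 3 called genes of each compartment with the smallest adjusted p. Acadl, and Acot1 against Chow, were added after their values were seen. Of the further pathway genes, up to 2 called per list were named. Cyp4a12a, Cd36 and Acot2, and Plin2 and Fgf21 against Vehicle, were added after their values were seen. A result for 1 further gene is not reported here. Ratios were also chosen after the values were seen and are given without a test. Correlations used two-sided permutation tests (scipy 1.17.1).

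The labels number the libraries but do not tie each to a mouse, so p-values measure the spread between these libraries, which may be technical. Within groups, the 26 library pairs were farther apart than sampling noise allows (mean chi-square per gene at least 16.8), and none was counted as a repeat. Library classes by receptor genes, split at 120 of 1985 genes with a count, were seen in these data. A count of 3 corresponded to 0.0659 to 0.10 CPM of raw totals, and the gene with the lowest counts of the 38, Acot3, lay between 0.13 and 2.19 CPM. Alternatives were DESeq2 1.42.0, limma-voom (limma 3.58.1) with sample quality weights, DESeq2 size factors, raw library totals, other filters, a replicate block, a receptor-class term, each class alone, the compared groups alone and leaving out each library.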

Additional observations from a re-analysis of the deposited data

Results flagged for a closer look

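In 114 groups of 4 or 5 libraries, 1 group for each of 38 genes in SR9009, Vehicle and Chow, 5 libraries stood apart from the others of their group by Dixon's test at the 95% level, which chance alone flags in about 1 of 20 groups. All 5 are Vehicle replicate 2. There Hadhb had 274 CPM, against 173 to 200.4 CPM in the other Vehicle libraries. Acot4 had 47.5 CPM, against 21.0 to 26.4 CPM, and Acot3 had 2.19 CPM, against 0.20 to 0.43 CPM. Cyp4a31 had 60.1 CPM, against 20.0 to 30.6 CPM. Acaa1a was low in that library, at 184 CPM, against 235 to 255 CPM in the others.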

How the results depend on the processing

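Scaling moved the comparisons with Chow most. Raw library totals shifted the median of all genes by 0.48 (log2) in Vehicle versus Chow and 0.45 in SR9009 versus Chow, and higher calls made up 88.3% and 86.3% of all called genes, against 54.0% and 54.3% with TMM. Of the 38 genes 16 were then higher and 5 lower in Vehicle versus Chow, with 8 higher and 10 lower in SR9009 versus Chow. The 51 further genes gave 18 and 14, then 14 and 17. The log2 fold change turned positive in Vehicle versus Chow for Acadm (0.37), Acads (0.28), Hadh (0.25), Hadha (0.18), Decr1 (0.19), Etfa (0.012), Ehhadh (0.41), Acaa1a (0.25), Ech1 (0.25) and Eci2 (0.18), and for Crat (0.27), Etfb (0.016) and Acot4 (0.43), uncalled under both scalings. It did so in SR9009 versus Chow for Acadl (0.41), Acadm (0.21), Acads (0.17), Decr1 (0.12), Ehhadh (0.014), Ech1 (0.12) and Eci2 (0.10), and for Crat (0.014), Hadh (0.21), Hadhb (0.20), Acaa1a (0.24) and Acot4 (0.37), uncalled under both scalings. These follow the shift of all genes.

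In SR9009 versus Vehicle, DESeq2 called 1 of the 38 genes and 2 of the further genes, all lower, and limma-voom 1 and 1, both lower. The cause was not tested. Libraries with few receptor genes, fewer samples, gave 4 higher calls in Vehicle versus Chow and 3 in SR9009 versus Chow. Leaving out each library gave 22 to 29 calls in Vehicle versus Chow (7 to 8 higher, 14 to 22 lower), 0 to 0 in SR9009 versus Vehicle and 24 to 29 in SR9009 versus Chow (5 to 6 higher, 19 to 24 lower). For the further genes it gave 33 to 41, 0 to 0 and 34 to 37. The other alternatives kept each count of calls within 1.5 times.

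Of the correlations with Cyp4a14, Cyp4a10 gave 0.526 without the 2 farthest libraries and 0.801 with many receptor genes, and Acot1 gave 0.636 and 0.922, none passing. On deviations from group means Acot1, Cyp4a10 and Ehhadh passed (r = 0.915, 0.79 and 0.737, adjusted permutation p of 0.00168, 0.0221 and 0.0385).

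Deviations of same-numbered libraries correlated at -0.411 to 0.23 for SR9009 and Vehicle, with 1 of 5 over 0.1. For Vehicle and Chow they correlated at -0.149 to 0.254, and for SR9009 and Chow at -0.336 to 0.188, with 1 of 4 over 0.1 in each. So few correlations cannot decide whether the numbers pair the samples, which the labels do not state. With a replicate block 24, 0 and 25 of the 38 genes passed in Vehicle against Chow, SR9009 against Vehicle and SR9009 against Chow, compared with 23, 0 and 27 without it, and over all genes SR9009 versus Vehicle gave 14 higher and 1 lower, against 30 and 14.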

Other observations

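Within Chow, replicate 3 was the lowest of the 4 libraries for 28 of the 38 genes and the highest for 0, with 5.99 CPM of Cyp4a14 and 2.32 CPM of Abcd2, against 39.8 to 103 CPM and 9.10 to 11.6 CPM in the other Chow libraries. Within SR9009, replicate 2 was the lowest library for 20 of the 38 genes. Within Vehicle, replicate 2 was the highest for 14 and the lowest for 12.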
